A study of Homo sapiens with 12 samples.

Results

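Wild-type MYB rescue was compared with the control line in the human erythroleukemia line K-562 by RNA sequencing. The comparison uses 6 of the 12 libraries of the series, grouped by their labels: 3 of the wild-type rescue group and 3 of the control group. The comparison and the gene lists were chosen with earlier results of these data known. Control cells were a stable line expressing 3xTY1 that was transfected with a non-targeting siRNA. Wild-type rescue cells were another stable line, expressing 3xTY-hcM, that was transfected with si2992, an siRNA against MYB. All cells were K-562, grown with G418 to select the stable lines, and RNA was taken 24 hours after transfection in what the series calls individual experiments. The groups thus differ in the stable line and in the siRNA, and an effect of the introduced MYB, of the line and of the siRNA cannot be told apart. Each line is 1 stable line, and whether it is a clone or a pool was not given in the sources used here. The other 6 libraries are quoted only for orientation: 3 of the 3xTY1 line with si2992 (knockdown) and 3 of a 3xTY-D152V line with si2992 (D152V rescue), where D152V names an altered MYB. The comparison asks how far cells that carry introduced MYB and the siRNA resemble cells with their own MYB undisturbed.

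MYB is a DNA-binding transcription factor that keeps hematopoietic progenitors dividing and falls as erythroid cells mature. It recruits the acetyltransferases EP300 and CREBBP to promoters and enhancers, and MYC, KIT, CDK6 and LMO2 are among the genes it is known to drive. K-562 cells stand at an erythroid-like stage, make embryonic and fetal globins, and depend on MYB for growth.

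Values are FPKM, a fragment count divided by transcript length and by the size of the library, and 1 value per gene does not separate introduced from endogenous MYB. A gene was tested where 3 or more of the 6 libraries had an FPKM of 1 or above, which held for 12613 genes. A gene was called changed at a limma adjusted p under 0.05, and log2 differences are on the log2(FPKM + 1) scale, wild-type rescue minus control. By that rule 3524 genes (27.9% of those tested) were called, 1651 higher (13.1%) and 1873 lower (14.8%) in wild-type rescue. The median absolute difference of the called genes was 0.52, and 440 (3.49%) were called with at least a 2-fold difference, 255 higher (2.02%) and 185 lower (1.47%). The median difference over all tested genes was -0.01, and control and wild-type rescue libraries did not overlap for 5766 of them. The shares of all tested genes called higher (13.1%) and lower (14.8%) are the background of every list count below. Read depth is unknown, FPKM totals ran from 672600 to 798400, and libraries of 1 group correlated at r of 0.984 to 0.992 over the tested genes. These p-values measure the spread between 3 libraries a group, and an exact permutation test of 3 against 3 could give no p below 0.10 for a single gene. The main fit took the libraries as unpaired, and adding the replicate number as a block raised the count of called genes to 4703. Leaving out siRNA_Control replicate 1, 2 or 3 lowered the count of called genes to 2120, 2124 and 2201. Placing all 12 libraries in 1 fit lowered it to 1270, and leaving MYB_KnockDown replicate 1, whose FPKM total was 1216000, out of that fit gave 3923. That 12-library fit removed 215 of the 309 calls among the members of the gene lists below, so its counts stand beside the lists, and 11-library counts leave out MYB_KnockDown replicate 1.

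**Figure D1:**
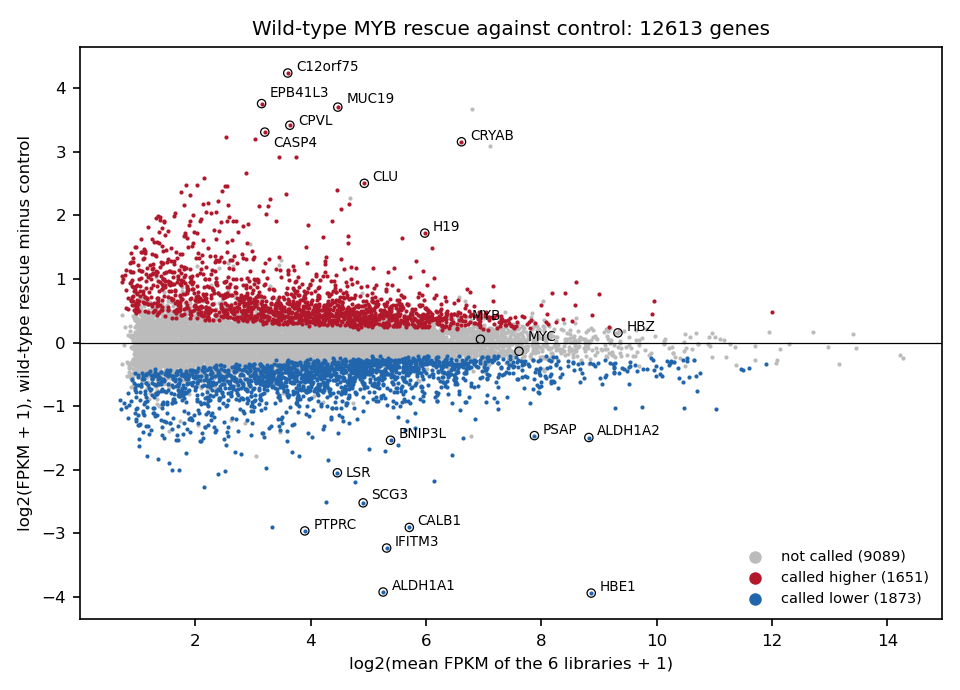
Each point is 1 of 12613 tested genes: the x axis is log2 of the mean FPKM of the 6 libraries plus 1, the y axis the log2(FPKM + 1) difference of wild-type rescue minus control, red called higher, blue called lower and gray not called. MYB and MYC lie near 0 on the y axis, while HBE1, ALDH1A1 and IFITM3 lie lowest and C12orf75, EPB41L3 and MUC19 highest among the labelled genes.

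The targeted gene was at nearly the same level in both groups. MYB (GRCh38 chromosome 6, 135181308 to 135219172, protein coding) was measured at 124, 132 and 104 FPKM in control replicates 1, 2 and 3 and at 132, 125 and 115 FPKM in wild-type rescue replicates 1, 2 and 3. The group ranges overlap, and the difference was 0.05 on the log2 scale (95% interval -0.18 to 0.28, limma adjusted p = 0.733). Knockdown libraries held 30.2 ± 3.58 FPKM and D152V rescue libraries 91.05 ± 8.11 FPKM (mean ± SD, n = 3 here and below). Against the knockdown, which received the same siRNA, MYB was higher in wild-type rescue by 2.01 (limma adjusted p = 5.90e-06).

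Of 15 tested members of a list of MYB family and literature MYB target genes, 2 were called higher and 2 lower, 26.7% in all, near the 27.9% of all tested genes. MYC (GRCh38 chromosome 8, 127735434 to 127742951), which drives cell growth, was at 217, 218 and 178 FPKM in control and 194, 183 and 178 FPKM in wild-type rescue, a difference of -0.14 (interval -0.35 to 0.07, limma adjusted p = 0.3). Its means in the other groups were 96.7 FPKM in knockdown and 117 FPKM in D152V rescue. LMO2 (GRCh38 chromosome 11, 33858576 to 33892076), which joins TAL1 to GATA factors in a complex, was at 30.3, 22.3 and 31.1 FPKM and 26.5, 29.2 and 25.1 FPKM, a difference of -0.04 (interval -0.34 to 0.26, limma adjusted p = 0.857). Its knockdown mean was 12.3 FPKM and its D152V rescue mean 11.02 FPKM. Both genes thus overlapped between control and wild-type rescue, with lower means in both other groups. STAT5A (GRCh38 chromosome 17, 42287439 to 42311943), which carries cytokine signals to the nucleus, gave 159.6, 139 and 125 FPKM in control and 138, 145 and 109 FPKM in wild-type rescue (-0.11, interval -0.41 to 0.18, limma adjusted p = 0.536). KIT, the receptor of stem cell factor, differed by 0.29 (interval -0.18 to 0.76), TAL1 by 0.11 (-0.08 to 0.31), and the cyclin gene CCNE1 by -0.16 (-0.42 to 0.10), and none of the 3 was called. The acetyltransferase genes EP300 (0.06, interval -0.16 to 0.28) and CREBBP (0.18, interval -0.09 to 0.46) were not called.

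The 4 called members of that list lay on both sides of the control level. CDK6 (GRCh38 chromosome 7, 92604921 to 92836573), a G1 kinase, was at 32.2, 32.8 and 27.9 FPKM in control and 44.03, 42.4 and 41.5 FPKM in wild-type rescue, and rose by 0.45 (SE 0.08, limma adjusted p = 0.00631), while its knockdown mean was 18.2 FPKM. UCA1, which makes a long noncoding RNA (GRCh38 chromosome 19, 15828947 to 15836321) was at 111, 103 and 115 FPKM in control and 157, 172 and 192 FPKM in wild-type rescue. It rose by 0.66 (SE 0.09, limma adjusted p = 0.00184, and 0.0706 in the 12-library fit), with means of 32.7 FPKM in knockdown and 54.6 FPKM in D152V rescue. For both genes every wild-type rescue library lay above every control library, and 5766 of the 12613 tested genes had groups that did not overlap. MYADM (GRCh38 chromosome 19, 53865628 to 53876435), whose product lies in membranes of the myeloid lineage, was at 73.9, 66.8 and 55.7 FPKM in control and 46.4, 44.6 and 29.9 FPKM in wild-type rescue. It fell by 0.70 (limma adjusted p = 0.0187) and stood between control and the knockdown mean of 13.3 FPKM. Its call was lost with no filter, in the 12-library fit and without siRNA_Control replicate 1 or 2, with an adjusted p of up to 0.168. GATA2, a progenitor transcription factor, fell by 0.26 (limma adjusted p = 0.0377), and that call was lost in 10 of 16 alternatives.

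**Figure D2:**
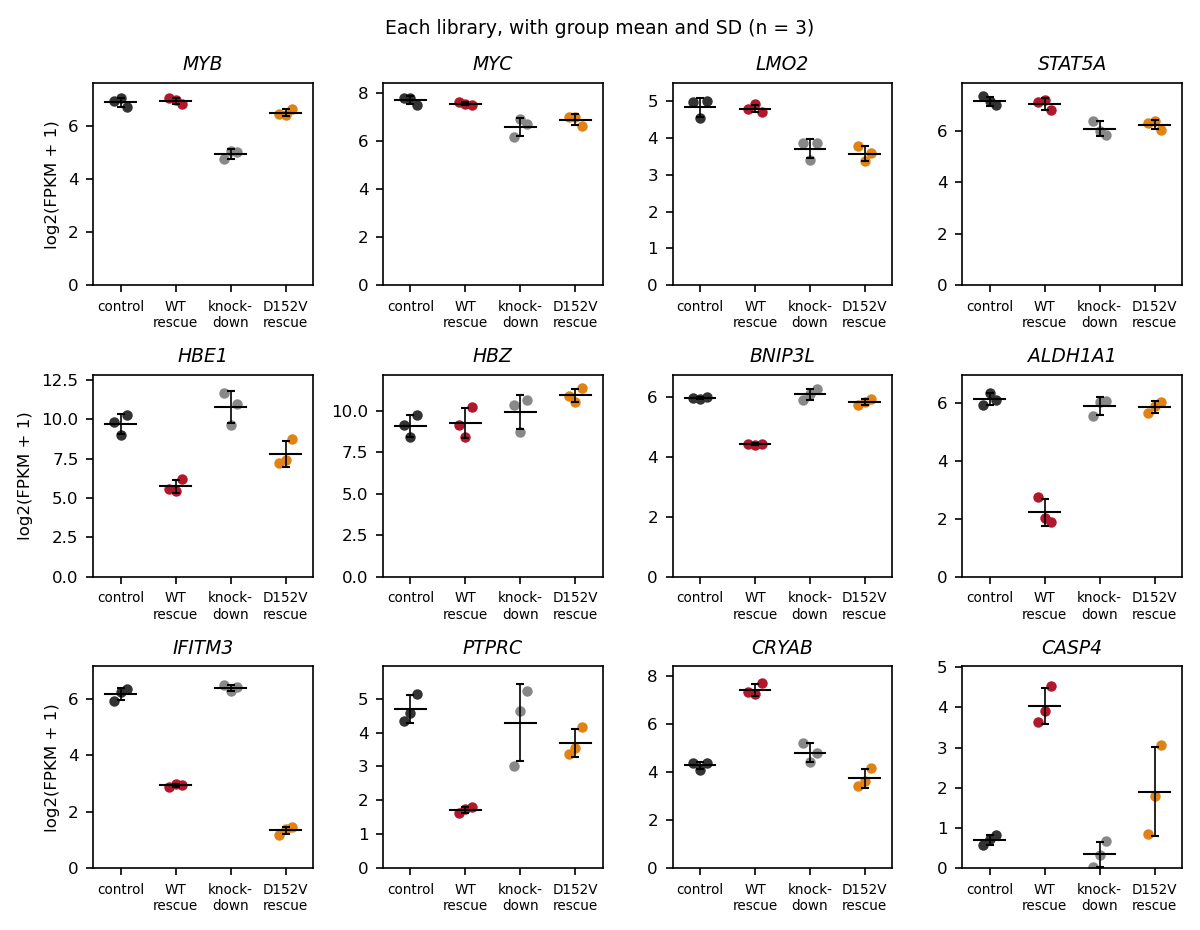
For 12 genes, each point is 1 library on the log2(FPKM + 1) axis in control, wild-type rescue (WT), knockdown and D152V rescue, with a horizontal bar at the group mean and error bars of 1 SD (n = 3). The MYB, MYC, LMO2 and STAT5A points of control and wild-type rescue overlap, while those of HBE1, BNIP3L, ALDH1A1, IFITM3 and PTPRC lie lower and those of CRYAB and CASP4 higher in all 3 wild-type rescue libraries.

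Globin genes encode the oxygen-carrying chains of red cells. Of 9 tested members of their list 4 were called lower (44.4%) and none higher, against 14.8% and 13.1% of all tested genes. The median difference was -0.17, and -0.04 with each library's trend on transcript length removed. HBE1 (GRCh38 chromosome 11, 5268345 to 5269945), the embryonic beta-like globin, was measured at 899.5, 509 and 1220 FPKM in control replicates 1, 2 and 3 and at 47.0, 43.1 and 72.6 FPKM in wild-type rescue. Every wild-type rescue library lay far below every control library. HBE1 fell by 3.94 (SE 0.31, limma adjusted p = 1.87e-04), a mean FPKM 16.2-fold lower, the largest decrease among the named genes on the log2(FPKM + 1) scale. Its knockdown libraries held 3300, 815 and 2031 FPKM and its D152V rescue libraries 151, 168 and 428 FPKM. HBBP1, a globin pseudogene that lies beside HBE1 and the fetal genes on chromosome 11 (GRCh38 chromosome 11, 5241954 to 5243592), fell by 2.51 (limma adjusted p = 0.0123), from 33.4, 13.8 and 47.5 FPKM to 3.68, 1.63 and 9.903 FPKM. Its call was lost with no filter and with robust moderation (adjusted p of up to 0.0619).

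The other globins did not move alike. HBZ (GRCh38 chromosome 16, 152644 to 154503), the embryonic alpha-like globin, was at 564, 343 and 854 FPKM in control and 564, 338 and 1187 FPKM in wild-type rescue, with overlapping ranges (0.15, interval -0.89 to 1.19, limma adjusted p = 0.833). HBA1, an adult alpha globin, gave 282, 226 and 282 FPKM and 253, 349 and 260.5 FPKM (0.12, interval -0.20 to 0.44). The fetal genes HBG2 (0.12, interval -0.52 to 0.75) and HBG1 (-0.10, interval -0.75 to 0.55) were not called. AHSP, which chaperones free alpha chains, was not called either (-0.17, interval -0.68 to 0.34). HBQ1, a theta globin gene of the alpha cluster, fell by 0.99 from 23.1, 18.2 and 27.8 FPKM to 11.5, 8.48 and 13.2 FPKM (limma adjusted p = 0.00608, and 0.161 in the 12-library fit). HBD, a minor adult beta-like globin, fell by 1.38 (limma adjusted p = 0.0401) and HBA2 by 0.69 (limma adjusted p = 0.043). Calls of HBD and HBA2 were lost in 8 and 10 of 16 alternatives, and with the 12-library fit 1 globin kept its call. HBG1 and HBG2, like HBA1 and HBA2, are near-identical copies whose separate values are uncertain.

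Genes of the red cell membrane and of erythroid maturation moved in both directions, with 12 of 28 tested members lower (42.9%) and 4 higher (14.3%), a median of -0.26, against 14.8% and 13.1% of all tested genes. GYPE (GRCh38 chromosome 4, 143870864 to 143905559), a glycophorin relative, fell by 1.68 (limma adjusted p = 2.71e-04) from 54.2, 39.9 and 50.9 FPKM to 15.6, 15.8 and 11.8 FPKM. Reads of GYPE can be shared with the near-identical gene copies of its family. BNIP3L (GRCh38 chromosome 8, 26383054 to 26413127), a mitochondrial receptor used to clear mitochondria from maturing red cells, was at 61.2, 59.7 and 62.4 FPKM in control and 20.7, 19.96 and 20.6 FPKM in wild-type rescue. It fell by 1.54 (SE 0.07, limma adjusted p = 1.33e-05), and its means were 67.1 FPKM in knockdown and 55.8 FPKM in D152V rescue. RHAG (GRCh38 chromosome 6, 49605175 to 49636839), an ammonia channel of the Rh complex, fell by 0.80 (limma adjusted p = 5.76e-04) from 317, 307 and 317 FPKM to 185, 162 and 195 FPKM. HEMGN, a nuclear protein of erythroid precursors, fell by 0.93 (limma adjusted p = 0.00323) from 152.5, 106 and 144 FPKM to 61.5, 67.6 and 78.9 FPKM, and its knockdown mean of 61.03 FPKM was as low. RHD and RHCE, the near-identical Rh antigen genes, fell by 1.32 and 1.45 (limma adjusted p = 0.0374 and 0.0307), and both calls were lost in 6 or more alternatives.

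Of the 4 higher members of the same list, CD36 and SLC4A1 started from low levels. CD36, a fatty acid receptor of early erythroid cells, rose by 1.12 (limma adjusted p = 0.00185) from 0.855, 0.647 and 1.25 FPKM to 3.11, 2.89 and 3.39 FPKM. SLC4A1, the anion exchanger of the red cell membrane, rose by 1.02 (limma adjusted p = 0.0122) from 0.458, 0.260 and 0.669 FPKM to 1.46, 1.56 and 3.103 FPKM. For both genes all wild-type rescue libraries lay above all control libraries, while 5766 of the 12613 tested genes had groups that did not overlap. KEL, a blood group endopeptidase, rose by 0.55 (limma adjusted p = 0.0153), a call lost with no filter and in the 12-library fit. ANK1, the ankyrin that ties the membrane to its skeleton, rose by 0.39 (limma adjusted p = 0.0296) from 24.9, 24.3 and 30.1 FPKM to 31.3, 35.9 and 37.5 FPKM, a call lost in 7 of 16 alternatives. The 12-library fit called 6 members lower and 2 higher, and the 11-library fit 12 and 4.

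Promoter windows of 250 bases before the start of transcription were searched for AGATAA, the letters that GATA factors, activators of many erythroid genes, bind, on both strands. Of 20 list members with a window 10 held it, against 6.83% of 9235 tested genes with a window and 9.17% of all 35116 windows. Over all called genes with a window, it was in 10.4% of those called higher and 7.52% of those called lower. Members with a match included ALDH1A1, GYPB, GYPE, HEMGN, RHCE and RHD, which were called lower, CD36 and KEL, called higher, and EPOR and SPTB, not called. Of these calls, those of GYPB, KEL, RHCE and RHD were lost in 2 to 7 of 16 alternatives. A match describes letters and is no evidence of binding. The last 100 bases before the start are shown for the members with the 2 largest decreases among these, ALDH1A1 (chr9:72953054-72953153, minus strand) and GYPE (chr4:143905560-143905659, minus strand), from RefSeq, GRCh38.p14, with AGATAA in capitals.
ALDH1A1: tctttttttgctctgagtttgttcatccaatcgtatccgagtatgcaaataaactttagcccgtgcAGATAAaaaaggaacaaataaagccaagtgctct
GYPE: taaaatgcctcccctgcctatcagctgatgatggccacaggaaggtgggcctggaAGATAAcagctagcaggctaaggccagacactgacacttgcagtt
The MYB letters CAACTG, with T also allowed as the first base and G as the fifth, searched the same way in 250 bases, were in 25.3% of genes called higher, 23.5% of genes called lower, 25.5% of tested genes and 21.1% of all windows.

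Heme and iron genes had 8 of 28 tested members called lower (28.6%) and 3 higher (10.7%), against 14.8% and 13.1% of all tested genes. Their median was 0.00. PPOX, an oxidase of the heme pathway, fell by 0.84 (limma adjusted p = 0.00245) from 19.8, 15.7 and 17.5 FPKM to 10.9, 9.14 and 8.32 FPKM. ALAD, an early enzyme of the pathway, fell by 0.63 (limma adjusted p = 0.00514), and SLC25A39, a mitochondrial carrier, by 0.56 (limma adjusted p = 0.00401). SLC40A1, the iron exporter ferroportin, rose by 0.91 (limma adjusted p = 0.00177) from 28.7, 24.1 and 32.7 FPKM to 55.4, 48.1 and 59.5 FPKM, and its means were 10.4 FPKM in knockdown and 15.0 FPKM in D152V rescue. Of these 4 calls that of SLC25A39 held in the 12-library fit, which called 1 member lower and none higher. The 11-library fit called 8 and 3.

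Transcription factors of blood cells had 9 of 28 tested members called lower (32.1%) and 4 higher (14.3%), against 14.8% and 13.1% of all tested genes. E2F2, a cell cycle factor prominent in erythroid cells, fell by 0.90 (limma adjusted p = 0.00266) from 6.78, 9.01 and 7.61 FPKM to 4.16, 3.79 and 3.18 FPKM. SOX6, which represses embryonic globin in definitive erythroid cells, fell by 0.86 (limma adjusted p = 0.00509) from 2.28, 1.81 and 2.27 FPKM to 0.970, 0.628 and 0.569 FPKM, while its D152V rescue mean was 6.29 FPKM. CBFB, the partner of RUNX factors, fell by 0.57 (limma adjusted p = 0.00217) from 51.9, 54.4 and 48.8 FPKM to 32.02, 36.95 and 34.2 FPKM, and LYL1, a relative of TAL1, by 0.40 (limma adjusted p = 0.00893). In the 12-library fit 3 members were called lower and 1 higher, and CBFB and LYL1 were not (adjusted p = 0.0615 and 0.15). GATA1, the central erythroid factor, was at 109, 100.3 and 135 FPKM in control and 87.1, 80.8 and 105 FPKM in wild-type rescue (-0.33, limma adjusted p = 0.0986), and with the replicate number as a block its adjusted p was 0.00514. KLF1, an erythroid activator, was not called (0.14, interval -0.13 to 0.40). RUNX1 (0.46) and ZBTB7A (-0.57) passed the test by a narrow margin (limma adjusted p = 0.0434 and 0.0467), and each lost its call in 8 of 16 alternatives.

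The 12 largest decreases by the naming rule came from genes of unrelated roles. ALDH1A1 (GRCh38 chromosome 9, 72900671 to 72953053), which makes retinoic acid from retinal, was at 61.05, 81.9 and 68.8 FPKM in control and 5.77, 3.06 and 2.77 FPKM in wild-type rescue. It fell by 3.92 (SE 0.22, limma adjusted p = 4.21e-05), a mean FPKM 18.3-fold lower, while the knockdown and D152V rescue means were 59.8 and 58.04 FPKM, close to control. The related ALDH1A2 (GRCh38 chromosome 15, 57953429 to 58065711) fell by 1.49 (limma adjusted p = 0.00189) from 722, 779.9 and 500.2 FPKM to 275, 260.4 and 175 FPKM. IFITM3 (GRCh38 chromosome 11, 319676 to 320860), a membrane protein that blocks virus entry, was at 59.4, 74.3 and 79.7 FPKM in control, 6.28, 6.92 and 6.71 FPKM in wild-type rescue and 1.29, 1.61 and 1.73 FPKM in D152V rescue. It fell by 3.23 (SE 0.12, limma adjusted p = 8.42e-06), and its knockdown mean was 82.3 FPKM, so both rescue lines lay below both groups of the 3xTY1 line. PTPRC (GRCh38 chromosome 1, 198638713 to 198757476), which encodes the leukocyte phosphatase CD45, fell by 2.96 (SE 0.19, limma adjusted p = 8.09e-05) from 19.3, 22.9 and 34.3 FPKM to 2.08, 2.35 and 2.51 FPKM. CALB1, a calcium buffer, fell by 2.91 (limma adjusted p = 1.94e-04), from a mean of 90.95 ± 6.91 to 11.8 ± 4.24 FPKM, and was at 7.53 FPKM in D152V rescue and 68.3 FPKM in knockdown.

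SCG3, a granin of secretory granules, fell by 2.52 (limma adjusted p = 1.32e-05) from 50.2 ± 6.91 to 7.89 ± 0.526 FPKM. FGF13, an intracellular FGF homolog, fell by 2.19 (limma adjusted p = 4.76e-04) from 43.5 ± 3.76 to 9.06 ± 3.05 FPKM, and its knockdown mean of 14.5 FPKM was also low. LSR, a lipoprotein receptor of tricellular junctions, fell by 2.05 (limma adjusted p = 1.84e-05) from 34.5 ± 2.07 to 7.61 ± 0.777 FPKM. For these 3 genes the lowest control library lay above the highest wild-type rescue library, a separation that the naming rule required. The cilia gene CFAP161 (-1.97), the cochaperone gene DNAJC12 (-1.78) and the antisense transcript TMEM132D-AS1 (-2.17) were also among the 12. How strand entered the counting was not given in the sources used here, so reads of an antisense gene and its partner cannot be told apart. Without a filter on low values DNAJC12 had an adjusted p of 0.053.

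The 12 largest increases started from control means that ran from under 1 FPKM in C12orf75, EPB41L3, CASP4 and GP1BB to 18.7 ± 2.096 FPKM in CRYAB. C12orf75 (GRCh38 chromosome 12, 105330691 to 105371518), a small protein gene, was at 0.108, 0.435 and 0.109 FPKM in control and 20.6, 18.1 and 27.6 FPKM in wild-type rescue. It rose by 4.24 (SE 0.18, limma adjusted p = 1.27e-05). EPB41L3 (GRCh38 chromosome 18, 5392386 to 5630663), a protein 4.1 relative that links the membrane to the cytoskeleton, rose by 3.75 (limma adjusted p = 8.42e-06) from 0.119, 0.322 and 0.223 FPKM to 14.4, 17.7 and 14.4 FPKM, with a D152V rescue mean of 0.00632 FPKM. CASP4 (GRCh38 chromosome 11, 104942866 to 104968574), an inflammatory caspase, rose by 3.31 (limma adjusted p = 8.09e-05) from 0.506, 0.643 and 0.786 FPKM to 11.5, 13.9 and 21.9 FPKM, and the D152V rescue libraries held 0.804, 2.48 and 7.32 FPKM. For all 3 genes the control libraries lay under 1 FPKM and far below every wild-type rescue library. Separate groups were a condition of the naming rule, and these genes passed the filter only through wild-type rescue. CRYAB (GRCh38 chromosome 11, 111908564 to 111923740), a small heat shock protein, was the most abundant of the 12 at 20.04, 16.2 and 19.7 FPKM in control and 160.4, 153 and 212 FPKM in wild-type rescue. It rose by 3.15 (SE 0.14, limma adjusted p = 1.27e-05), a mean FPKM 9.39-fold higher, with means of 28.1 FPKM in knockdown and 12.8 FPKM in D152V rescue.

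MUC19, a gel-forming mucin, rose by 3.70 (limma adjusted p = 1.38e-04) from 2.27 ± 1.15 to 40.1 ± 8.75 FPKM. CPVL, a serine carboxypeptidase of macrophages, rose by 3.42 (limma adjusted p = 8.42e-06) from 1.142 ± 0.273 to 21.8 ± 1.75 FPKM. CDH18, a cadherin, rose by 2.91 (limma adjusted p = 7.01e-05), and the chaperone-like secreted protein gene CLU by 2.50 (limma adjusted p = 5.51e-04). In D152V rescue the means of MUC19, CPVL and CDH18 were 0.423, 0.112 and 0.805 FPKM, below control, while that of CLU was 33.5 FPKM. VEPH1 (2.40), the monocarboxylate transporter family member SLC16A9 (2.33) and the chemokine gene CCL5 (2.26) were among the 12 as well. GP1BB, a platelet adhesion receptor subunit, was at 0.0715, 1.65 and 0 FPKM in control and 10.3, 24.9 and 6.49 FPKM in wild-type rescue (3.20, limma adjusted p = 0.00292). Its call was lost in the 12-library fit (0.147), where the knockdown libraries held 63.99, 0 and 0 FPKM. Of the 24 largest changes, 21 were called in every alternative run for them, the others being GP1BB, HBBP1 and DNAJC12. The 24 were picked by the tested difference in the same libraries, so kept calls are no independent support. C12orf75, EPB41L3 and CASP4 were tested in only 13 of the 16 alternatives.

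The naming rule also took 24 genes with a mean FPKM under 0.5 in one group and at least 3 in the other, 21 of them higher and 3 lower in wild-type rescue. They were picked by the difference that was tested and passed the filter mainly through the group where they were high. Their p-values and kept calls are therefore no independent support. HMGA2 (GRCh38 chromosome 12, 65824460 to 65966291), an architectural chromatin protein of embryonic cells, was at 0.0638, 0.0259 and 0.0521 FPKM in control and 5.08, 8.99 and 14.6 FPKM in wild-type rescue (3.23, limma adjusted p = 3.53e-04), and at 0.0324 and 0.0604 FPKM in knockdown and D152V rescue. ITGA4 (GRCh38 chromosome 2, 181457205 to 181538940), an integrin of leukocyte adhesion, rose by 2.16 (limma adjusted p = 0.00105) from 0.148, 0.137 and 0.421 FPKM to 2.67, 4.88 and 6.65 FPKM. Its annotation overlaps CERKL (GRCh38 chromosome 2, 181536672 to 181657105), which rose by 1.80, so their values may share reads. IL32, a cytokine gene, rose by 2.32 (limma adjusted p = 2.36e-04), and its D152V rescue mean was 3.18 FPKM. TSPAN18, a tetraspanin, rose by 2.36 (limma adjusted p = 4.21e-05) to 4.196, 4.96 and 4.83 FPKM and had 3.15 FPKM in D152V rescue. NREP (2.59), the acetate enzyme gene ACSS1 (2.48), the protease gene PRSS57 (2.47) and the histone deacetylase gene HDAC9 (1.89) rose with D152V rescue means of 0.157, 0.589, 0.174 and 0.262 FPKM. The 3 that fell were TLE4, a Groucho corepressor (-1.997), the lipid transporter gene ABCA8 (-1.996) and the cancer-testis gene CTAG2 (-1.90). For these genes the log2(FPKM + 1) scale understates the fold, and 23 of the 24 kept their call in every alternative that tested them, the exception being PTHLH, lost with no filter.

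Chaperones and other genes of the unfolded protein response, which relieves the endoplasmic reticulum of misfolded proteins, were called in 1 direction: 11 of 24 tested members of their list were called higher (45.8%) and none lower, with a median of 0.27, against 13.1% higher among all tested genes. HSP90B1 (GRCh38 chromosome 12, 103930410 to 103947926), the reticulum's HSP90, was at 368, 335 and 436 FPKM in control and 582, 619 and 719 FPKM in wild-type rescue. It rose by 0.76 (SE 0.12, limma adjusted p = 0.00299), with every wild-type rescue library above every control library. Groups did not overlap for 5766 of the 12613 tested genes. HSPA5 (GRCh38 chromosome 9, 125234853 to 125241343), the reticulum's HSP70 and sensor of unfolded proteins, rose by 0.60 (SE 0.11, limma adjusted p = 0.00727) from 198, 177 and 233 FPKM to 297, 281 and 340.1 FPKM. HERPUD1, a membrane protein of reticulum-associated degradation, rose by 0.96 (limma adjusted p = 0.00552) from 14.9, 10.5 and 14.8 FPKM to 27.99, 21.4 and 32.01 FPKM. SYVN1, the ubiquitin ligase of that degradation, rose by 0.53 (limma adjusted p = 0.00125), and MANF, a secreted reticulum stress protein, by 0.64 (limma adjusted p = 0.00293). D152V rescue means of HSP90B1, HSPA5, HERPUD1 and MANF were 378, 186, 14.02 and 24.2 FPKM. The 12-library fit called 2 members, HERPUD1 among the genes named here, and gave adjusted p of 0.148 for HSPA5, 0.115 for HSP90B1, 0.138 for SYVN1 and 0.26 for MANF. The 11-library fit called 11.

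The endoplasmic reticulum stress response element is a promoter sequence of these chaperone genes, so windows of 250 bases before the start were searched on both strands for CCAAT followed, after any 9 bases, by CCACG. It was in 7 of 22 list genes with a window (31.8%), against 15 of 9235 tested genes (0.162%) and 26 of 35116 windows (0.074%). Of those 7, HSPA5, HSP90B1, ERO1B and CALR were called higher, by 0.60, 0.76, 0.65 and 0.24, and CRELD2 (0.43), PDIA6 (0.21) and XBP1 (0.20) were not called. CALR passed narrowly (limma adjusted p = 0.0421) and lost its call in 8 of 16 alternatives, and ERO1B lost its call with no filter (0.0559). The windows of 3 abundant members follow, from RefSeq, GRCh38.p14, with the element in capitals: HSPA5 (chr9:125241344-125241593, minus strand), HSP90B1 (chr12:103930160-103930409, plus strand) and CALR (chr19:12938359-12938608, plus strand).
HSPA5: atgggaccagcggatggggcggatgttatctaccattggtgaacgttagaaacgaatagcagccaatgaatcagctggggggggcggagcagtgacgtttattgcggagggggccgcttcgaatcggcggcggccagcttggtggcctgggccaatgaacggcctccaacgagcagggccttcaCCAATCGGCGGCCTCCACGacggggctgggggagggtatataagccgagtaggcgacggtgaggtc
HSP90B1: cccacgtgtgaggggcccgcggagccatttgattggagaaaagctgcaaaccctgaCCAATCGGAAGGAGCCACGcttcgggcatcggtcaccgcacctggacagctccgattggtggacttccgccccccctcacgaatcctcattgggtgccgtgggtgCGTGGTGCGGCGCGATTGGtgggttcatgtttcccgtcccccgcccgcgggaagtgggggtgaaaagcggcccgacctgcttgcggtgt
CALR: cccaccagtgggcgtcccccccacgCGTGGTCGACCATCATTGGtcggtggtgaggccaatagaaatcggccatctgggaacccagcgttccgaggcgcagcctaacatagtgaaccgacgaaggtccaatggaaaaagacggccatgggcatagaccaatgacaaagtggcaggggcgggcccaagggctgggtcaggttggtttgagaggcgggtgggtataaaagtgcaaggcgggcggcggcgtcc
HSP90B1 held the element at 2 places, and HSPA5 and CALR at 1.

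Of the heat shock genes and their cochaperones, 14 of 29 tested members were called higher (48.3%) and 1 lower (3.45%), against 13.1% and 14.8% of all tested genes. Their median was 0.23. DNAJA1 (GRCh38 chromosome 9, 33025273 to 33039907), an HSP40 that assists HSP70, was at 244, 253 and 249.6 FPKM in control and 408, 461 and 420.4 FPKM in wild-type rescue. It rose by 0.78 (SE 0.07, limma adjusted p = 3.58e-04), and its knockdown and D152V rescue means of 245 and 244 FPKM lay near control. DNAJB4, another HSP40, rose by 1.13 (limma adjusted p = 3.02e-04) from 41.5, 32.9 and 38.7 FPKM to 83.3, 77.99 and 89.3 FPKM. HSPA1A, the inducible HSP70, rose by 0.79 (limma adjusted p = 0.00225, 0.0682 in the 12-library fit) from 238, 191 and 205 FPKM to 419, 340 and 338 FPKM, a value it may share with its copy HSPA1B. HSPA6, a strictly inducible HSP70, rose by 1.11 (limma adjusted p = 0.0024) from 1.19, 0.800 and 0.912 FPKM to 4.097, 2.78 and 2.89 FPKM. The 1 member called lower was DNAJB6, which suppresses protein aggregation (-0.33, limma adjusted p = 0.0123, 0.0624 in the 12-library fit). The 12-library fit called 5 members higher and the 11-library fit 16, and leaving out 1 library left 8 to 13.

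The heat shock element, the letters that heat shock factors bind, was searched in the same windows, on both strands, as GAA, TTC and GAA with any 2 bases between neighbours. It was in 7 of 25 list genes with a window (28%), against 41 of 9235 tested genes (0.444%) and 0.441% of all windows. Of the 7, HSPA6 and CHORDC1 were called higher, DNAJB6 lower, and HSP90AA1 (0.02), HSP90AB1 (-0.02), HSPA8 (0.17) and HSPD1 (0.05) were not called. CHORDC1, an HSP90 cochaperone, rose by 0.37 (limma adjusted p = 0.00532, 0.109 in the 12-library fit). The last 100 bases before the start are shown for the 2 higher members, from RefSeq, GRCh38.p14, with the element in capitals: CHORDC1 (chr11:90223050-90223149, minus strand), where 3 matches overlap, and HSPA6 (chr1:161524440-161524539, plus strand).
CHORDC1: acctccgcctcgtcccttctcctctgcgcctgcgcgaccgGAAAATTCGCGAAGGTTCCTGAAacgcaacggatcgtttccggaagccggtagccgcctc
HSPA6: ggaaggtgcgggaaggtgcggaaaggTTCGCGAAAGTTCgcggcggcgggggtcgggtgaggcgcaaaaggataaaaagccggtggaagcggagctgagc

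**Figure D3:**
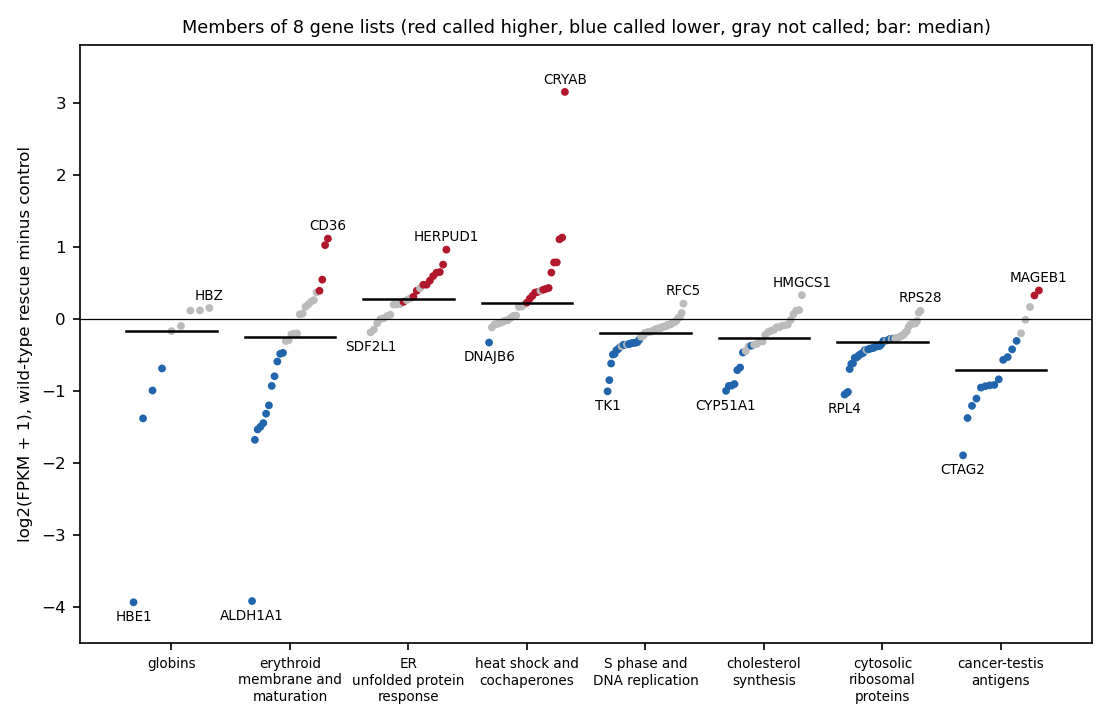
Each point is a tested member of 1 of 8 gene lists, placed by its log2(FPKM + 1) difference of wild-type rescue minus control, red called higher, blue called lower and gray not called, with a bar at the list median and the names of the lowest and highest member. The medians of both chaperone lists lie above 0 (0.27 and 0.23), and those of the 6 other lists below 0, the lowest being -0.70 for cancer-testis antigens.

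Of the DNA replication genes, which copy the genome in S phase, 17 of 44 tested members were called lower (38.6%) and none higher. All tested genes had 14.8% called lower and 13.1% higher. The median of the list was -0.20 (-0.26 to -0.17 over the alternatives). TK1 (GRCh38 chromosome 17, 78174079 to 78187204), which salvages thymidine, was at 53.05, 56.2 and 60.7 FPKM in control and 26.4, 27.4 and 29.2 FPKM in wild-type rescue and fell by 1.01 (SE 0.08, limma adjusted p = 2.15e-04). FEN1 (GRCh38 chromosome 11, 61792911 to 61797238), the nuclease that trims Okazaki fragments, fell by 0.85 (SE 0.09, limma adjusted p = 7.03e-04) from 81.6, 94.7 and 94.4 FPKM to 46.7, 54.6 and 47.5 FPKM. Subunits of the replicative helicase fell less, MCM7 by 0.49 and MCM5 by 0.42 (limma adjusted p = 0.00198 and 0.00505). None of the control and wild-type rescue libraries overlapped for these 4 genes, as held for 5766 of the 12613 tested genes. In knockdown, with MYB_KnockDown replicate 1 included, the means of TK1 and MCM7 were 89.5 and 266 FPKM, and in D152V rescue 50.04 and 170.4 FPKM. The 12-library fit called 3 members lower, TK1 and FEN1 but not MCM7 or MCM5 (adjusted p = 0.0712 and 0.0513), and the 11-library fit 18.

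Mitotic genes had 7 of 35 tested members called lower and 4 higher (31.4% in all, near the 27.9% of all tested genes), and 8 higher with the replicate number as a block. BUB1B, a spindle checkpoint kinase, fell by 0.55 (limma adjusted p = 0.00427) and CCNB2, a mitotic cyclin, by 0.76 (limma adjusted p = 0.00462), while NEK2, a centrosome kinase, rose by 0.61 (limma adjusted p = 0.00242). ANLN, a scaffold of the cleavage furrow, rose by 0.71 (limma adjusted p = 8.42e-04, 0.0698 in the 12-library fit). Among G1 cyclins, their kinases and inhibitors 3 of 20 were called higher and 3 lower (30.0%, near the 27.9% of all genes). CDKN1A, a kinase inhibitor induced by p53, rose by 0.74 (limma adjusted p = 0.0336), a call lost in 5 of 15 alternatives that tested it (adjusted p of up to 0.113), and CDK4 fell by 0.46 (limma adjusted p = 0.00591, 0.0587 in the 12-library fit).

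Of the cytosolic ribosomal protein genes, 27 of 46 tested members were called lower (58.7%) and none higher, against 14.8% and 13.1% of all tested genes. Their median was -0.33. RPL4 (GRCh38 chromosome 15, 66498015 to 66504855), a large subunit protein, was at 2512, 2714 and 3226 FPKM in control and 1269, 1217 and 1595 FPKM in wild-type rescue and fell by 1.05 (SE 0.13, limma adjusted p = 0.00141). RPL10 (GRCh38 chromosome X, 154398065 to 154402339) fell by 1.03 (limma adjusted p = 0.00104) from 1775, 1992 and 1950 FPKM to 1058, 774 and 982 FPKM, and the small subunit gene RPS7 by 0.50 (limma adjusted p = 0.00279, and 0.0736 in the 12-library fit). Processed copies of ribosomal protein genes can share their reads. The number called lower was 13 with quantile normalization, 23 with each library's trend on transcript length removed, 3 in the 12-library fit and 31 in the 11-library fit, while the median stayed between -0.38 and -0.15. Short transcripts differed in general: the median difference was -0.11 in the shortest of 4 equal length groups of tested genes (122 to 1645 bases) and 0.08 in the longest (4718 to 34626 bases). Ribosomal protein genes held 8.30% to 9.79% of the FPKM total in control and 6.98% to 7.71% in wild-type rescue, and mitochondrial genes 10.5% to 17.1% and 14.2% to 20.5%. The part of transcript length and library composition in the lower ribosomal values was not tested beyond these settings.

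Nuclear genes of the respiratory chain had 13 of 38 tested members called lower (34.2%) and none higher, against 14.8% and 13.1% of all tested genes. Their median was -0.21, which was -0.13 with quantile normalization (10 called lower) and -0.11 with the length trend removed (9 called lower). COX5A, a cytochrome oxidase subunit, fell by 0.83 (SE 0.10, limma adjusted p = 0.00105) from 168, 165 and 173 FPKM to 87.9, 110.5 and 87.1 FPKM. Another subunit gene, COX8A, fell by 0.69 (limma adjusted p = 0.00951), and the complex I genes NDUFS7 and NDUFV1 by 0.52 and 0.49 (limma adjusted p = 0.00143 and 0.00591). None of these 13 calls remained in the 12-library fit, the 11-library fit called 17, the replicate block 21, and leaving out 1 library left 5 to 16.

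Glycolysis and hypoxia genes had 12 of 36 tested members called lower (33.3%) and 4 higher (11.1%), against 14.8% and 13.1% of all tested genes. Their median was -0.26 (-0.16 with quantile normalization). GPI, which converts glucose phosphate to fructose phosphate, fell by 0.69 (limma adjusted p = 6.04e-04) from 182, 178 and 200.2 FPKM to 118, 116 and 110.4 FPKM. Aldolase A (ALDOA) fell by 0.52 (limma adjusted p = 0.0104), a call lost with no filter, with quantile normalization and in the 12-library fit. HIF1A, the oxygen-sensitive transcription factor, rose by 0.50 (limma adjusted p = 0.00584, 0.319 in the 12-library fit). Quantile normalization called 8 members lower and the 12-library fit 2, and in the latter GPI kept its call. ENO1, an abundant enolase, fell by 0.28 (limma adjusted p = 0.0301) and was at 0.01 with quantile normalization, the opposite sign, and its call was lost in 9 of 16 alternatives.

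Cholesterol synthesis genes had 8 of 28 tested members called lower (28.6%) and none higher, against 14.8% and 13.1% of all tested genes. Their median was -0.27. CYP51A1 (GRCh38 chromosome 7, 92112153 to 92134803), the lanosterol demethylase, was at 60.1, 54.5 and 68.8 FPKM in control and 28.5, 30.2 and 31.2 FPKM in wild-type rescue and fell by 1.00 (SE 0.10, limma adjusted p = 4.34e-04). Its knockdown and D152V rescue means were 25.6 and 29.4 FPKM, so the means of all 3 groups that received si2992 lay below the lowest control library. TM7SF2 and EBP, enzymes of later steps, fell by 0.90 and 0.68 (limma adjusted p = 0.00258 and 0.0017), but EBP was at 209 FPKM in knockdown and 77.03 FPKM in D152V rescue against 80.2 ± 8.71 in control. SREBF1, the transcription factor of lipid synthesis, fell by 0.47 (limma adjusted p = 0.00223). The knockdown means include MYB_KnockDown replicate 1. The 12-library fit called 4 members, the 11-library fit 10 lower and the replicate block 13 lower. TM7SF2, EBP and SREBF1 lost their calls in the 12-library fit alone (limma adjusted p = 0.0524, 0.273 and 0.131).

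Cancer-testis antigens, germline genes that are switched on in many tumors, had the highest share of called members among lists with at least 8 tested members. Of 18 tested members 13 were called lower (72.2%) and 2 higher (11.1%), against 14.8% and 13.1% of all tested genes. Their median was -0.70. MAGEC2 (GRCh38 chromosome X, 142202342 to 142205290) was at 64.5, 76.2 and 71.1 FPKM in control and 25.04, 27.2 and 27.3 FPKM in wild-type rescue and fell by 1.38 (SE 0.08, limma adjusted p = 7.01e-05). PAGE1 (GRCh38 chromosome X, 49687447 to 49695984) fell by 1.21 (limma adjusted p = 7.01e-05) from 38.7, 39.01 and 36.2 FPKM to 16.1, 15.8 and 15.7 FPKM, and GAGE2A, 1 of a family of near-identical copies, by 0.95 (limma adjusted p = 2.52e-04). Knockdown and D152V rescue means of MAGEC2 were 71.5 and 78.7 FPKM, against 70.6 ± 5.87 FPKM in control. MAGEB1 and MAGEA1 were the 2 members called higher (0.40 and 0.33), calls lost in 5 and 6 of 16 alternatives. With the 12-library fit 7 members were lower and none higher, and PAGE1 and GAGE2A had adjusted p of 0.228 and 0.0894.

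Of the imprinted genes 2 of 14 were called higher (14.3%) and 3 lower (21.4%), near the 13.1% and 14.8% of all tested genes. H19 (GRCh38 chromosome 11, 1995176 to 2001266), a maternally expressed noncoding RNA, was at 31.2, 30.8 and 20.4 FPKM in control and 108, 127 and 54.8 FPKM in wild-type rescue and rose by 1.72 (SE 0.29, limma adjusted p = 0.00447), while its D152V rescue mean was 0.815 FPKM and its knockdown mean 47.2 FPKM. PLAGL1, a zinc finger gene, rose by 0.93 (limma adjusted p = 2.81e-04, 0.192 in the 12-library fit).

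Interferon-induced genes split, with 8 of 25 tested members called higher (32%) and 5 lower (20%), against 13.1% and 14.8% of all tested genes. IFI16 (GRCh38 chromosome 1, 158999976 to 159055151), a DNA sensor, was at 7.83, 8.44 and 7.56 FPKM in control and 24.9, 25.4 and 31.4 FPKM in wild-type rescue and rose by 1.65 (SE 0.11, limma adjusted p = 9.31e-05), with 74.3 FPKM in D152V rescue. Beside IFITM3 the neighbours IFITM2 and IFITM1 fell by 1.34 and 0.93 (limma adjusted p = 0.00165 and 0.00151), and IFITM2 and IFITM3 are close copies. IFITM2 lost its call in the 12-library fit (0.211). IFIH1, an RNA sensor, rose by 1.23 (limma adjusted p = 0.00539), and IRF2, a regulator of interferon genes, by 0.59 (limma adjusted p = 0.00323). In the antigen presentation list 4 of 16 members were called higher (25%) and 3 lower (18.8%), against 13.1% and 14.8% of all tested genes. B2M (GRCh38 chromosome 15, 44711517 to 44718145), the light chain of class I molecules, fell by 1.03 (SE 0.10, limma adjusted p = 4.23e-04) from 738, 894 and 877 FPKM to 390.1, 393 and 446 FPKM, while the peptide transporter genes TAP2 and TAP1 rose by 0.72 and 0.67 (limma adjusted p = 0.00143 and 0.0105). HLA-C rose by 0.86 (limma adjusted p = 0.0217) from low levels, a call lost in 5 alternatives.

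Detoxification genes had 8 of 25 tested members called lower (32%) and 3 higher (12%), against 14.8% and 13.1% of all tested genes. Beside ALDH1A1 and ALDH1A2, the aldose reductase gene AKR1B1 fell by 1.144 (limma adjusted p = 0.00151) from 1.93, 1.44 and 1.91 FPKM to 0.160, 0.312 and 0.267 FPKM. GCLC, the catalytic subunit of glutathione synthesis, rose by 1.08 (limma adjusted p = 8.36e-04) from 6.55, 7.13 and 6.67 FPKM to 14.4, 18.5 and 13.8 FPKM. SLC7A11, the cystine importer, rose by 0.95 (limma adjusted p = 0.00179). It was the 1 member called higher among 32 genes of the ATF4 program (3.1%, against 13.1% of all tested genes). Another 5 were lower (15.6%, near the 14.8% of all tested genes). SHMT2, a mitochondrial serine enzyme, led those 5 and fell by 1.04 (limma adjusted p = 1.67e-04).

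Apoptosis genes had 4 of 28 tested members called higher (14.3%, near the 13.1% of all genes) and none lower. PMAIP1, the death protein NOXA, rose by 0.83 (limma adjusted p = 0.00192) from 13.4, 16.1 and 16.6 FPKM to 24.8, 31.2 and 28.1 FPKM. CASP8 and BAK1 rose by 0.44 and 0.48, calls lost in the 12-library fit (adjusted p = 0.131 and 0.0528), and the replicate block also called 5 members lower. Acetyltransferases and MYB cofactors had 9 of 38 members called higher (23.7%) and 4 lower (10.5%), against 13.1% and 14.8% of all tested genes. NCOA2, a nuclear receptor coactivator, rose by 1.29 (SE 0.12, limma adjusted p = 3.87e-04) from 1.91, 2.33 and 2.001 FPKM to 5.97, 7.23 and 6.499 FPKM, and its D152V rescue mean was 7.13 FPKM. HIPK2 and HIPK1, kinases that phosphorylate MYB, rose by 0.69 and 0.52 (limma adjusted p = 0.00682 and 0.0075), calls lost in the 12-library fit (0.142 and 0.301), which called 1 member of the list in each direction.

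**Figure D4:**
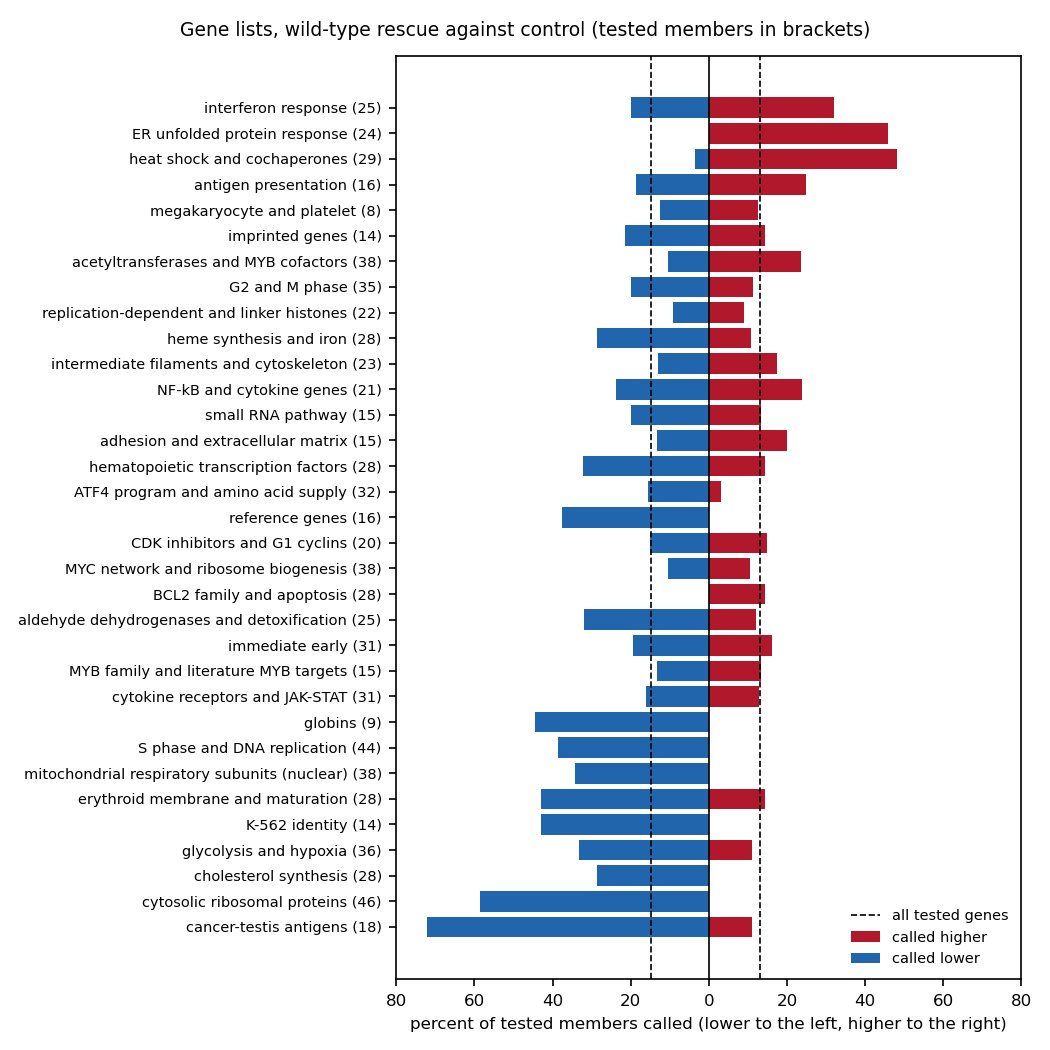
For each gene list with at least 8 tested members, bars give the percent of tested members called lower (blue, to the left) and higher (red, to the right) in wild-type rescue, ordered by median difference. Dashed lines mark 14.8% lower and 13.1% higher among all tested genes, and the longest bars are those of cancer-testis antigens (72.2% lower), ribosomal proteins (58.7% lower) and heat shock genes (48.3% higher).

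Of the immediate early genes 5 of 31 were called higher (16.1%) and 6 lower (19.4%), near the 13.1% and 14.8% of all tested genes, with 3 lower when the length trend was removed. PHLDA1, a growth factor-induced gene, rose by 2.03 (limma adjusted p = 1.31e-04) from 0.985, 0.851 and 0.846 FPKM to 5.42, 7.49 and 7.45 FPKM, and FOSL1, an AP-1 subunit, by 1.17 (limma adjusted p = 2.94e-04). The antisense PHLDA1-AS1 rose too (2.04). Among 21 cytokine and NF-kB genes 5 were called in each direction (23.8%), against 13.1% higher and 14.8% lower among all tested genes. IL18, an inflammatory cytokine, was lower by 1.40 (limma adjusted p = 2.45e-04), and CCL5 and IL32 were higher. In the adhesion list FN1, fibronectin, fell by 1.03 (limma adjusted p = 0.00667) and ITGB1, the partner chain of ITGA4, rose by 0.40 (limma adjusted p = 0.00578, 0.0833 in the 12-library fit). TUBB2A, a tubulin, and TPM4, a tropomyosin, rose by 0.65 and 0.70 (limma adjusted p = 0.00152 and 0.00162).

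Markers were used to check the labelled cell type. All 14 genes of the K-562 list were detected in both groups, and their summed FPKM was 1714 to 3308 in control and 1232 to 2282 in wild-type rescue. Of these 14, 6 were called lower (42.9%), against 14.8% of all tested genes. Of 17 lymphoid markers, 12 were under 1 FPKM in all control libraries and 11 in all wild-type rescue libraries, with sums of 94.8 to 109.1 and 109.1 to 148.1, and CD8A and MS4A1 were listed at 0 throughout. All 6 that were tested were called, against 27.9% of all tested genes. Of the 6, 2 were lower, PTPRC among them, and 4 higher, CD3D, CD3G, NKG7 and BTK. NKG7 lost its call in 4 of 15 alternatives and BTK in 2 of 16. CD3G was under 1 FPKM in every control library and passed the filter only through wild-type rescue. CD3D, a chain of the T cell receptor complex, was at 23.4, 18.4 and 16.99 FPKM in control, 46.9, 33.3 and 58.9 FPKM in wild-type rescue and a mean of 90.8 FPKM in D152V rescue (1.18, limma adjusted p = 0.00421, 0.121 in the 12-library fit). Of 21 monocyte and granulocyte markers 17 were under 1 FPKM in both groups, ELANE, CTSG and S100A8 were listed at 0, with summed FPKM of 79.3 to 112 in control and 54.3 to 63.4 in wild-type rescue, and CD33 fell by 0.73 (limma adjusted p = 0.00454). Of 17 fibroblast and epithelial markers 11 were under 1 FPKM in all libraries of each group, with sums of 547 to 626 in control and 482 to 509 in wild-type rescue. The keratin gene KRT8, which K-562 cells express, held much of that sum and fell by 0.49 (limma adjusted p = 0.00431, 0.527 in the 12-library fit) from 289.8, 310.1 and 265 FPKM to 200.5, 197 and 219 FPKM. Megakaryocyte and platelet markers summed to 141.7 to 178 in control and 149 to 187 in wild-type rescue. Of 8 tested members 1 was called higher, GP1BB, and 1 lower, GP6 (12.5% each, near the 13.1% and 14.8% of all tested genes). GP6 fell by 0.65 (limma adjusted p = 0.0193), a call lost in 4 of 15 alternatives. None of 4 tested stem and progenitor surface genes was called, while quantile normalization, median-ratio scaling and the replicate block each called 1 higher. The part of other cell types in the results was not tested. Of 16 common reference genes none was called higher (2 with quantile normalization) and 6 lower (37.5%, against 14.8% of all tested genes). HPRT1 fell by 0.93 (limma adjusted p = 2.53e-04) from 137, 138 and 128 FPKM to 75.9, 68.6 and 65.2 FPKM.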

How the data were processed

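RNA of 12 K-562 libraries was sequenced as 125-base paired reads, and the 6 control and wild-type rescue libraries were compared. The authors deposited 1 FPKM value per gene and library. The submitters' processing notes name bcl2fastq 2.17.1.14, Trimmomatic 0.33, TopHat2 2.0.13, Cufflinks 2.2.1 and the GRCh38 build, while the annotation and strand setting were not given in the sources used here. The deposited table holds 60658 genes, of which 34914 were at 0 in all 6 libraries, and 0 of its columns lacked a sample. Depth is unknown: whole reads could not be recovered, since a median of 2.09% of the ratios of low values between libraries lay within 2% of the library pair's median ratio. No count model was therefore used. No pair of libraries was identical (0 pairs).

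Genes at an FPKM of 1 or above in 3 or more of the 6 libraries were tested on log2(FPKM + 1), a pseudocount of 1, with limma 3.58.1 in R 4.3.3 (variance trend) and Benjamini-Hochberg adjustment over all of them, and called at an adjusted p under 0.05. Labels set the groups. The fit was tested on simulated data. Symbols were found for 11596 tested genes, and coordinates and promoter windows came from RefSeq (GRCh38.p14). Of 1046 symbols in 37 gene lists, 1040 matched and 804 genes were tested. Other steps ran in Python 3.11.15 with pandas 2.3.3 and matplotlib 3.10.9.

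Genes named were MYB, a few fixed genes, the 12 largest called increases and decreases with non-overlapping groups and a mean FPKM of at least 5 (small RNAs, mitochondrial genes, ribosomal protein pseudogenes and clone names left out), up to 4 called members of each list by adjusted p, and genes with a mean under 0.5 in 1 group and at least 3 in the other. Other list members named were chosen after their values were seen, and some genes are not reported here. The comparison, its members and the lists were chosen with earlier results of these data known. Alternatives left out each library, put all 12 libraries in 1 fit, added a replicate block, used quantile normalization, robust moderation or median-ratio scaling, changed the pseudocount to 0.1 or the threshold to 0.01, and dropped the filter or required a mean FPKM of 5. After the data were seen, a fit with each library's trend on transcript length removed and fits without MYB_KnockDown replicate 1 were added.

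Replicate numbers come from the sample titles. Control and wild-type rescue libraries of the same number deviated together from their group means (r of 0.162, 0.176 and 0.362 over the tested genes), against -0.22 to 0.068 for other pairs. Deviations from a mean of 3 libraries sum to 0, so values above 0 for same numbers push the other values down. The main fit took the libraries as unpaired, and the fit with a replicate block treats the numbers as pairs.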

Additional observations from a re-analysis of the deposited data

Results flagged for a closer look

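The 2 rescue lines received the same siRNA, and each was set against the same 3 control libraries. For 19 genes among MYB and the 24 largest changes, the difference between the rescue lines passed the limma test in the fit of 12 libraries (adjusted p under 0.05). The 24 were chosen by how far the same 3 wild-type rescue libraries lay from control, so this count is no independent support. The share of all tested genes that differed between the rescue lines is not given here. No group had 4 or more libraries, so no single library was tested as an outlier.

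Higher in wild-type than in D152V rescue, on the log2(FPKM + 1) scale, were MUC19 by 4.86, CPVL by 4.36, EPB41L3 by 4.03, CRYAB by 3.70, CDH18 by 3.70 and C12orf75 by 3.42. The inflammatory caspase gene CASP4 was higher by 2.12, SLC16A9 by 1.96, VEPH1 by 1.62, IFITM3 by 1.59 and CCL5 by 1.13. IFITM3 was below control in both lines, with means of 6.64 FPKM in wild-type and 1.54 FPKM in D152V rescue.

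Lower in wild-type than in D152V rescue were ALDH1A1 (-3.64), DNAJC12 (-2.61), SCG3 (-2.21), the embryonic globin gene HBE1 (-2.05), FGF13 (-1.97), PTPRC (-1.97), LSR (-1.64) and CFAP161 (-0.79). The ALDH1A1 means were 3.86 FPKM in wild-type and 58.0 FPKM in D152V rescue, and those of HBE1 54.2 and 249 FPKM.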

How the results depend on the processing

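The count of called genes, 3524 as reported, was 1270 with all 12 libraries in 1 fit and 1476 at an adjusted p under 0.01, and 2120 to 3220 with 1 library left out. Genes called higher numbered 672, 724 and 975 to 1403 under the same 3 settings, and genes called lower 598, 752 and 1012 to 1817. Without siRNA_Control replicate 1 there were 975 higher and 1145 lower, without control replicates 2 and 3 1012 and 1061 lower, and without MYB-WT_Rescue replicate 2 1058 higher. The count of genes called with at least a 2-fold difference, 440, was 718 with a pseudocount of 0.1, 179 where the mean FPKM had to reach 5 and 339 to 409 with 1 library left out. Called list members numbered 94 and 142 in place of 309, and 203 (without siRNA_Control replicate 1) to 296 with 1 library left out. The fit of 12 libraries includes MYB_KnockDown replicate 1, and without it the count was 3923. The cause of the other shifts was not tested.

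With the replicate number as a block, which pairs the libraries, 4703 genes were called, 2246 higher and 2457 lower, and 3513 of the 3524 calls were kept. The block raised the members called lower from 8 to 13 for cholesterol synthesis, 13 to 21 for the respiratory chain, 3 to 6 for intermediate filaments and 0 to 5 for the BCL2 family, and those called higher from 4 to 8 for mitosis, 3 to 6 for heme and iron, 1 to 4 for ATF4, 0 to 3 for reference genes and 0 to 1 for stem and progenitor surface genes.

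Differences near 0 changed sign, and the cause was not tested. ENO1 was at 0.015 with quantile normalization. With the length trend removed EP300 was at -0.032, LMO2 at 0.018 and HBG1 at 0.026. With 1 library left out MYB ran from -0.046 (without siRNA_Control replicate 3) to 0.12, STAT5A from -0.20 to 0.011 (without MYB-WT_Rescue replicate 3), LMO2 from -0.19 to 0.046, HBZ from -0.33 to 0.58, HBG2 from -0.15 to 0.39 and HBG1 from -0.34 to 0.22. Against knockdown, KLF1 was at -0.10, and at 0.22 without MYB_KnockDown replicate 1. The log2(FPKM + 1) scale compresses differences of low genes, and with depth unknown no counting interval can be given. The share of calls that were higher ran from 42.7% to 52.9% over the settings that kept the threshold of 0.05.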

Other observations

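Genes of the MYC network and of ribosome biogenesis had 4 of 38 tested members called higher and 4 lower (21.1% in all, against 27.9% of all tested genes), with a median of -0.07, and 2 lower with quantile normalization or the length trend removed. MLXIP, a partner of the MAX-like factor MLX, rose by 0.64 (limma adjusted p = 0.00486) from 26.2, 25.4 and 25.1 FPKM in control to 41.6, 46.5 and 34.1 FPKM in wild-type rescue. RRN3, an initiation factor of RNA polymerase I, rose by 0.46 (limma adjusted p = 0.00585), and MYCL, a MYC paralog, fell by 0.63 (limma adjusted p = 0.00595). These 3 calls held in each of the 15 or 16 alternatives that tested them. Cytokine receptor and JAK-STAT genes had 4 of 31 members called higher and 5 lower (29.0% in all, near the 27.9% of all tested genes). Each of these calls was lost in at least 1 alternative, and the fit of 12 libraries called 1 higher and none lower. TNFRSF1A, a receptor of tumor necrosis factor, had the largest rise among them (0.84, limma adjusted p = 0.0163), lost with no filter and without siRNA_Control replicate 1 or 2. Histone genes had 2 of 22 members called in each direction (18.2% in all, against 27.9% of all tested genes), and 5 higher with the length trend removed. The linker histone gene H1-10 fell by 0.86 (limma adjusted p = 0.0177), a call lost with no filter and without siRNA_Control replicate 3. Of 15 genes of the small RNA pathway, which an siRNA also uses, 2 were called higher and 3 lower (33.3% in all, against 27.9% of all tested genes). TARBP2, a partner of Dicer, fell by 0.36 (limma adjusted p = 0.0107) and kept its call in every alternative.

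Some of the largest differences were not called, and in 2 examples, chosen after their values were seen, 1 library stood apart. ENSG00000281823, an entry without a symbol in the tables used, was listed at 52.2, 53.1 and 0 FPKM in control and 202, 237 and 120.4 FPKM in wild-type rescue (3.66, limma adjusted p = 0.0752). The noncoding gene ERICH2-DT was at 0.874, 0.356 and 1.08 FPKM in control and 1.18, 0.920 and 143 FPKM in wild-type rescue (2.28, limma adjusted p = 0.266). A single entry held 14.1% of the FPKM total of wild-type rescue replicate 3 and 11.2% of that of control replicate 2.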
